A study of Drosophila melanogaster with 3 samples.

Results

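The RpL genes encode the proteins of the large (60S) subunit of the cytoplasmic ribosome. They were taken as all protein-coding genes of the Ensembl/FlyBase annotation of dm6 whose symbol starts with RpL, which gave 54 of 13945 protein-coding genes. The symbols include 3 genes with the suffix -like (RpL7-like, RpL24-like and RpLP0-like) that are related to assembly factors known from yeast rather than to subunits of the mature ribosome, and some duplicates of a core gene. Chromatin immunoprecipitation followed by sequencing (ChIP-seq) was done on a transgenic line of Drosophila melanogaster that stably expresses eyegone (eyg), a Pax-family transcription factor, with GFP fused to its C terminus. Embryos of both sexes, collected from 0 to 24 h and used whole, were sonicated to 200 to 800 bp, and tagged protein was recovered with an antibody against GFP. The 3 biological replicates formed 1 group and all carried the same transgene, so no contrast between conditions was possible and no test was made. Whole embryos hold many tissues, so a site may come from a few cells or from many.

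Ribosomal protein genes are among the most strongly transcribed genes of most cells, and the fly is known for the Minute phenotype, slow growth and short bristles, that follows loss of 1 copy of many of them. Their promoters in the fly often start transcription at a pyrimidine-rich TCT initiator in place of the usual initiator, and the DNA replication-related element (DRE), bound by the factor Dref, is a known element of housekeeping promoters. Several proteins of the large subunit line the peptidyl transferase centre or the tunnel through which the new peptide leaves, and others form the mobile stalks or the 5S ribonucleoprotein.

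The promoters of 6 RpL genes are shown because they carried high eyg-GFP signal and because the matches discussed later lie in them. They are the highest by signal among genes whose window was allowed here, leaving out 1 chromosome arm and windows with more than 30 annotated UTR bases. Each runs from 120 bases before to 20 bases from the transcription start site (TSS) nearest to the summit, 5′ to 3′ on the gene's strand, from the RefSeq genome on dm6. Capitals mark the string CTTT of a TCT initiator with its C within 5 bp of the TSS, the DRE string TATCGATA, the E box CACGTG that Myc is known to bind, and the promoter string CANCNCTA (motif 7).
RpL14 (chr3L:8600886-8601025, plus strand): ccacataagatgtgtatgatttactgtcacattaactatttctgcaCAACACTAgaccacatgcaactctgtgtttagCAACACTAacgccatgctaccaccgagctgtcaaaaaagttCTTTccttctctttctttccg
RpL23A (chr3L:1668635-1668774, minus strand): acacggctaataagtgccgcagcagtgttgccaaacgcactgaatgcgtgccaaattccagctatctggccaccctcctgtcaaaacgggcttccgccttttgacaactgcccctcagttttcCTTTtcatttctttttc
RpL32 (chr3R:30046142-30046281, minus strand): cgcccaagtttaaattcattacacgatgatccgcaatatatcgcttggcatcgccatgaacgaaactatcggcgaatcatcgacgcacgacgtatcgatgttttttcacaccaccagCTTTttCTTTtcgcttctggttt
RpL24 (chr2L:13395112-13395251, minus strand): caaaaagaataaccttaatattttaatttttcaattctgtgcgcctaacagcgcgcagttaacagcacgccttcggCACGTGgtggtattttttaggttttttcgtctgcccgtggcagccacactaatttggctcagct
RpL13A (chr3R:5624354-5624493, plus strand): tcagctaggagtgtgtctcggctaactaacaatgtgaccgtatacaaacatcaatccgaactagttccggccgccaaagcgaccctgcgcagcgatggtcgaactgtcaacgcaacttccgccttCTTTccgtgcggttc
RpL28 (chr3L:3222941-3223080, minus strand): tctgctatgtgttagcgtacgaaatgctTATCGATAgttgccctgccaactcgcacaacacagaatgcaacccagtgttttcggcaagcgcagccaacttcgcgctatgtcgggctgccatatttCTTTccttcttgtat
The CTTT string stood at the TSS of 5 of these 6 windows and was missing at the TSS shown for RpL24, which instead held CACGTG. RpL28 held a DRE, and RpL14 held motif 7 at 2 places. The windows of RpL23A, RpL32 and RpL13A held no match other than the initiator string.

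An RpL gene was said to have a site when the summit of a peak of the authors' optimal list lay no further than 1 kb from any of its annotated TSSs. By this measure 40 of the 54 RpL genes had a site, or 74.1% (95% Wilson interval 61.1 to 83.9%, counting error only), beside 14.7% of all protein-coding genes. Each of the 40 genes had 1 peak, and no peak was shared between RpL genes. The signal below is the authors' own value per region, whose scale is not stated. It had a median of 254.1 at the 40 RpL sites (range 116.8 to 534.3), beside a median of 166.4 over all protein-coding genes with a site. At 29 of the 40 genes (72.5%) it was 200 or more, beside 37.1% of all genes with a site. By rank in the optimal list of 2537 peaks, 24 of the 40 (60%) fell in the first of 4 equal parts and 3 in the last, beside 29.8% and 21.8% of all genes with a site. Among regions of the longer pooled candidate list, which includes weak regions, 51 of the 54 RpL genes had one within 1 kb, or 94.4%, beside 56.4% of all protein-coding genes.

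**Figure D1:**
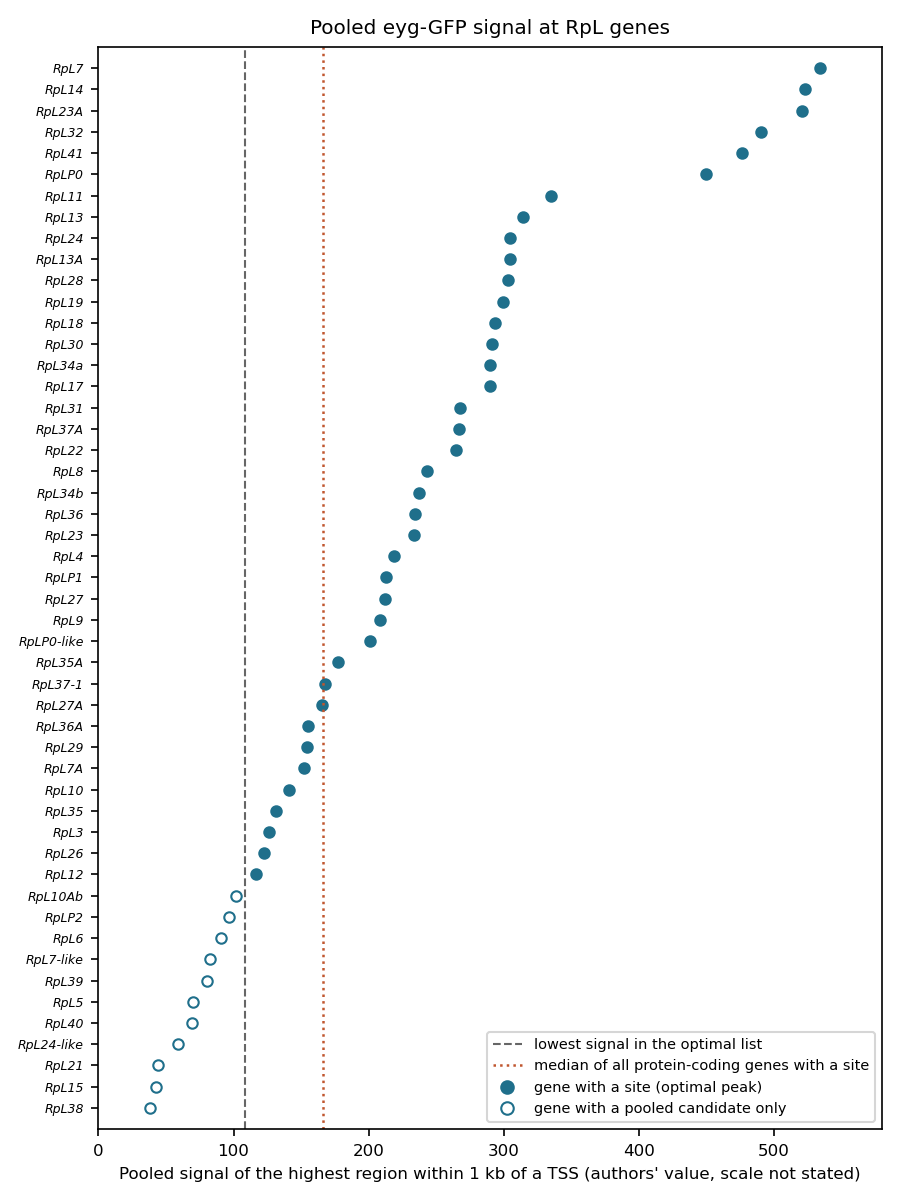
Signal of the highest pooled region within 1 kb of a TSS (horizontal axis, the authors' value with no stated scale) for 50 of the 51 RpL genes that had one, in order. Filled points are 39 of the 40 genes with an optimal peak, open points the 11 with a candidate only; 6 genes stand above 400, and a gap separates RpLP0 (449.9) from RpL11 (335.1).

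The 6 genes of highest pooled signal formed a group of their own. RpL7, a protein of the large subunit core, had a pooled signal of 534.3 and signals of 164.5, 190.3 and 175.8 in replicates 1, 2 and 3. RpL14 had a pooled signal of 522.6 and replicate signals of 151.8, 189.1 and 185.6. RpL23A, which sits at the mouth of the exit tunnel, had a pooled signal of 521.0 and replicate signals of 160.8, 171.9 and 194.5. These 3 genes could not be ordered, since their replicate values overlapped. RpL32, widely used in the fly as a reference transcript, had a pooled signal of 490.5 and replicate signals of 150.5, 160.4 and 200.3. RpL41, a very small protein at the interface with the small subunit, had a pooled signal of 476.5 and replicate signals of 150.8, 173.3 and 165.7. RpLP0, the base of the P stalk that recruits translation factors, had a pooled signal of 449.9 and replicate signals of 158.5, 151.1 and 142.3. In each of the 3 replicate lists these 6 genes held the 6 highest signals among the 40 RpL sites. Expressed against the median RpL site of the same replicate, their signals averaged from 1.83 ± 0.150 (SD, n = 3) at RpLP0 to 2.15 ± 0.167 (SD, n = 3) at RpL7. The next gene in order, RpL11, averaged 1.36 ± 0.258 (SD, n = 3) on this scale. On dm6 the 6 summits lay at chr2L:10201057 in a 5′ UTR of RpL7, chr3L:8600972 and chr3L:1668735 upstream of RpL14 and RpL23A, chr3R:30046286 upstream of RpL32, chr2R:24904034 upstream of RpL41 and chr3L:22076066 in a 5′ UTR of RpLP0. Peaks of these 6 genes were also narrower than the full width of 424 bp that most peaks had. Narrow peaks were found at 7 of the 40 RpL sites (17.5%, beside 11.0% of all genes with a site), and the only other one lay at RpL13A.

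Below them lay a run of RpL genes close together, of which 5 with pooled signals from 303.0 to 335.1 are described. RpL11, which joins RpL5 and 5S rRNA in the 5S ribonucleoprotein, had a pooled signal of 335.1 and replicate signals of 102.3, 134.0 and 98.6. RpL13 had a pooled signal of 314.3 and replicate signals of 119.5, 99.3 and 95.5. The order of these genes did not hold across replicates, since RpL11 was below RpL13 in replicate 1 and above it in replicates 2 and 3. RpL24, at a bridge between the subunits, had a pooled signal of 304.7 and replicate signals of 72.0, 135.2 and 97.5, the widest spread of these 5 genes. RpL13A had a pooled signal of 304.5 and replicate signals of 93.9, 114.1 and 102.4. RpL28 had a pooled signal of 303.0 and replicate signals of 108.8, 77.1 and 116.5. The replicate ranges of all 5 genes overlapped, so no order among them was resolved.

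Roles were assigned here as a single class per gene, so a class need not hold every protein with that role. The classes described hold 8 genes or fewer. Their counts stand beside 74.1% of all RpL genes and 14.7% of all protein-coding genes with a site. Differences between classes were not tested. The 3 proteins placed at intersubunit bridges all had a site. Their pooled signals of 291.3 to 476.5 were all above the RpL median of 254.1. RpL30, the lowest of the 3, had replicate signals of 91.2, 93.3 and 103.3. The 3 proteins placed near the peptidyl transferase centre, where peptide bonds form, also all had a site, but below that median. RpL8 had a pooled signal of 243.4 and replicate signals of 64.9, 117.7 and 58.2. RpL10 had a pooled signal of 141.4 and replicate signals of 53.2, 50.9 and 45.7. RpL3 had a pooled signal of 126.3 and replicate signals of 52.8, 49.7 and 46.4. RpL10 and RpL3 thus overlapped in their replicate values and lay below RpL8 in all 3 replicates, and every replicate value of the bridge genes RpL30 and RpL41 was above both.

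Of the 8 proteins placed at the exit tunnel, 7 had a site, with a median pooled signal of 267.6 and a range of 122.7 to 521.0. Behind RpL23A came RpL19, with a pooled signal of 299.3 and replicate signals of 98.8, 102.9 and 94.8. RpL26, the lowest of the 7, had a pooled signal of 122.7 and replicate signals of 36.1, 25.5 and 64.1. Replicates disagreed most here, since RpL26 stood at rank 6922 in replicate 2 and at rank 1163 in replicate 3. RpL17, RpL31, RpL4 and RpL35 lay between RpL19 and RpL26, from 289.7 down to 131.6. The exit tunnel protein without a site was RpL39.

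Among the stalk proteins, 3 of 6 genes had a site, beside 74.1% of all RpL genes and 14.7% of all protein-coding genes. RpLP1, which pairs with RpLP2 on the P stalk, had a pooled signal of 213.2 and replicate signals of 74.8, 76.2 and 59.4. RpL12, at the base of the stalk, had the lowest signal of all RpL sites, 116.8, and replicate signals of 32.0, 33.3 and 48.5. RpL10Ab, the protein of the L1 stalk, missed the optimal list with a pooled signal of 102, where the lowest signal in that list was 108.3. Its replicate signals of 31.9, 44.9 and 38.4 overlapped those of RpL12, so these genes on either side of the limit were not separated by the replicates. RpLP2 had a pooled candidate of 96.3 and replicate signals of 36.6, 56.9 and 25.1.

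The remaining core proteins with a site had pooled signals from 152.2 to 293.9. In order they were RpL18, RpL34a, RpL37A, RpL22, RpL34b, RpL36, RpL23, RpL27, RpL9, RpL35A, RpL37-1, RpL27A, RpL36A, RpL29 and RpL7A. RpL7A, the lowest of them, had replicate signals of 49.4, 55.8 and 60.7. The 5 lowest RpL sites of all were RpL10, RpL35, RpL3, RpL26 and RpL12. RpL35, another protein at the tunnel exit, had a pooled signal of 131.6 and replicate signals of 39.6, 62.3 and 30.1. The −log10 q-values that the authors' caller gave ran from 2.60 at RpL12 to 3.37, a value shared by all RpL sites with a signal of 165.4 or more.

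The 14 RpL genes without a site fell into 3 kinds. A first kind had a candidate that a call overlapped in all 3 replicates, as RpL10Ab and RpLP2 above. RpL6 belonged here with a pooled signal of 90.9 and replicate signals of 27.6, 41.4 and 32.4. RpL5, the partner of RpL11, had a pooled signal of 69.9, and the replicate calls that overlapped it had signals of 18.7, 19.8 and 38.7. RpL39 had a pooled signal of 80.0 and replicate signals of 28.4, 19.2 and 36.8, but the summit of this region lay at -595 bp from its TSS, near the TSS of Rap2l.

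A second kind had candidates that a call did not overlap in every replicate. The division rests on this overlap and not on strength. RpL40 and RpL7-like had a replicate 3 call within 1 kb, of 15.9 at -558 bp and 22.6 at -619 bp, that did not overlap the candidate. RpL40, made as a fusion with ubiquitin, had a pooled signal of 69.1 and overlapping calls of 29.2 and 28.3 in replicates 1 and 2 and none in replicate 3. RpL7-like had a pooled signal of 82.8 and overlapping calls of 34.4 and 27.7 in replicates 1 and 2 and none in replicate 3. RpL24-like had a pooled signal of 59.0 and overlapping calls of 34.1 and 28.3 in the same replicates and none in replicate 3. Lower still were RpL21 (pooled signal 43.9), RpL15 (43.0) and RpL38 (37.9), each with an overlapping call in 1 replicate. Their single calls had signals of 22.5 for RpL21 in replicate 1, 17.6 for RpL15 in replicate 2 and 21.0 for RpL38 in replicate 1. The last kind, RpL10Aa, RpL22-like and RpL37-2, had no candidate within 1 kb in the pooled list or in any replicate. The lists hold only called regions, so a missing call gives no value for the signal there.

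Several of these 14 genes lay near a centromere or were duplicates of another RpL gene. RpL15, RpL21, RpL5 and RpL38 lay 0.842, 1.27, 0.979 and 4.52 Mb from the centromere end of their arm in the assembly. RpL30, at 4.51 Mb, was the only other RpL gene within 5 Mb, and it had a site, so 1 of these 5 genes did. Over all protein-coding genes, 128 of 1030 within 5 Mb had a site (12.4%), close to the 14.7% of all genes. The limit of 5 Mb was chosen after the values were seen, and the next RpL genes, RpL10 at 5.02, RpL35A at 5.47 and RpL13A at 5.63 Mb, all had a site, so a slightly wider limit would give 4 of 8 genes. What other features these regions share was not tested.

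Of the 4 duplicate pairs, 2 had a site at 1 copy, 1 at both copies and 1 at neither. RpL22 had a pooled signal of 264.9 (replicate signals 94.0, 91.1 and 75.7), and RpL22-like, a copy known from the fly testis, had no candidate. RpL37-1 had a pooled signal of 167.5 (replicate signals 56.4, 42.8 and 62.6), and RpL37-2 had no candidate. RpL10Ab had a candidate of 102 and RpL10Aa none. The same order held for the genes related to assembly factors, with RpL7 at 534.3 beside RpL7-like at 82.8 and RpL24 at 304.7 beside RpL24-like at 59.0. RpLP0-like departed from it, with a site of 201.2 (replicate signals 68.7, 56.8 and 80.6), although this was below RpLP0 in every replicate. Both RpL34 copies had a site. RpL34a had a pooled signal of 290.0 with replicate signals of 103.6, 96.0 and 84.7, and RpL34b had 237.4 with replicate signals of 81.3, 48.7 and 114.0, so their replicate values overlapped.

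The summits lay close to the start of transcription. The median distance from summit to the nearest TSS of the gene was 28.5 bp at the 40 RpL sites. It was 162 bp over all protein-coding genes with a site. The 95% interval of the RpL median, 20 to 36 bp, was taken over the 40 genes and does not measure spread between replicates. A total of 38 of the 40 summits (95%) lay within 100 bp of the TSS, beside 32.4% of all genes with a site. Of these, 27 were 1 to 100 bp upstream and 11 were 0 to 100 bp downstream. The other 2 were further upstream, among them RpL32 at -125 bp. By annotation of any protein-coding gene, 24 summits were between genes, 14 in a 5′ UTR and 2 in introns. The 2 in introns were those of RpL35 and RpL41. The RpL41 summit lay at -99 bp from the RpL41 TSS, so that intron belongs to another gene. The summit was nearest to a TSS of the RpL gene itself at 37 of the 40 (92.5%, Wilson interval 80.1 to 97.4%), beside 70.6% of all genes with a site. The exceptions included RpL41 and RpL13, where the TSS of NaCP60E or Dref was nearer.

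**Figure D2:**
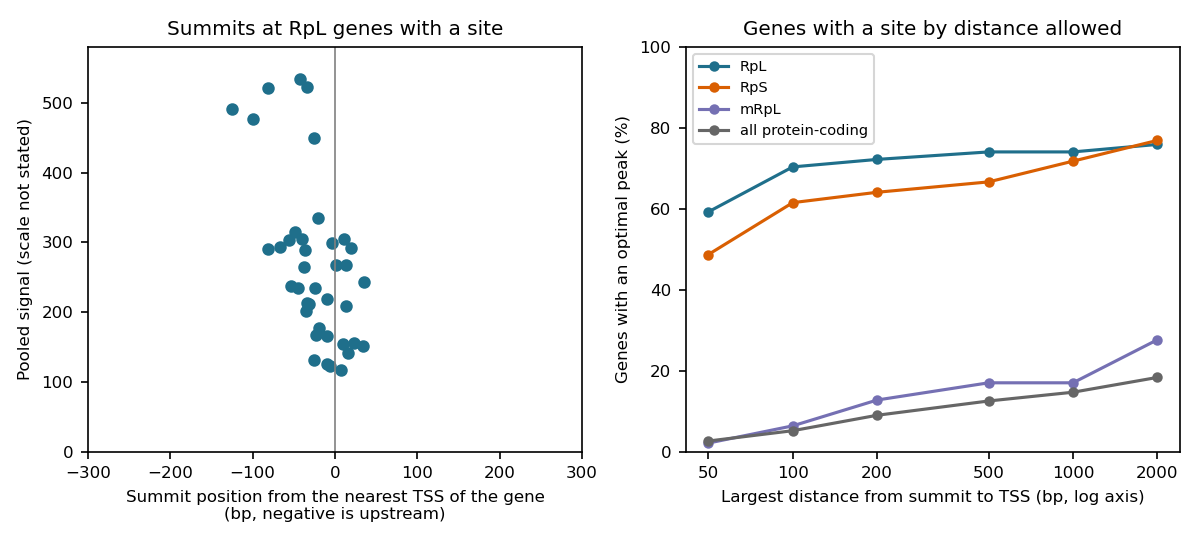
Left, position of the summit from the nearest TSS of the gene (bp, negative upstream) against pooled signal for 39 of the 40 RpL genes with a site; 38 points lie within 100 bp of the TSS. Right, percent of genes with an optimal peak against the largest distance allowed (log axis) for 54 RpL, 39 RpS, 47 mRpL and all 13945 protein-coding genes; 70.4% of RpL genes have a summit within 100 bp beside 5.18% of all genes.

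Many RpL genes are packed against a divergent neighbour, so a peak there cannot be told apart from a peak of the neighbour's promoter. The nearest neighbouring TSS was divergent and within 1 kb at 61.1% of RpL genes, beside 33.2% of all protein-coding genes. At 28 of the 40 RpL sites another protein-coding gene had a TSS within 1 kb of the summit, and at 12 none did. Measured from TSS to TSS, 28 of the 40 RpL genes with a site had a neighbour within 1 kb. The same held for 1333 of all 2049 genes with a site, a similar share. The 12 sites with no other TSS near the summit had a median signal of 265.9 (range 116.8 to 521.0). The 28 with one had a median of 240.4 (range 122.7 to 534.3), so the ranges overlapped almost fully. Counted over genes, 28 of the 34 RpL genes with a neighbouring TSS within 1 kb of their own had a site (82.4%), beside 22.3% of all such genes. Among the 20 RpL genes with no such neighbour, 12 had a site (60%), beside 9.00% of all such genes. The genes standing alone with the highest signals were RpL23A, RpL11, RpL24, RpL30 and RpL17. Several shared peaks lay beside genes of transcription or translation. RpL13 shared its peak with Dref, the gene of the DRE-binding factor, whose TSS is 84 bp away and was the nearer one. RpL36 shared a peak of 234.2 with Mybbp1A, which encodes a nucleolar protein. RpL14 shared its peak with Nelf-E, a subunit of the negative elongation factor, and RpL28 with eIF1, a translation initiation factor.

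The RpL sites were high in all 3 replicate lists. A replicate call overlapped the optimal peak at each of the 40 genes in each replicate. The optimal list was itself made from these replicates, so nothing is read from this overlap, and its share over all genes is not given. The median rank percentile of the RpL sites, where 100 is the highest signal of a list, was 98.8 in replicate 1, 98.0 in replicate 2 and 97.2 in replicate 3. The mean of these was 98.0 ± 0.820 (SD, n = 3), beside 95.9 ± 0.333 (SD, n = 3) for all protein-coding genes with a site, all of which were selected as reproducible by the authors' procedure. The call was among the 2537 highest of a replicate, the length of the optimal list, in all 3 replicates at 36 of the 40 genes (90.0%), beside 63.1% of all genes with a site. The exceptions were RpL29, RpL35 and RpL26, in 2 replicates, and RpL12, in 1. Taken without the optimal list, the 2537 highest calls of each replicate lay within 1 kb of a TSS of 43, 41 and 38 of the 54 RpL genes in replicates 1, 2 and 3. The same calls reached 14.6%, 14.4% and 15.0% of all protein-coding genes. Across the 40 sites the signals of replicates correlated with Spearman's rho of 0.82 for replicates 1 and 2, 0.78 for 1 and 3 and 0.67 for 2 and 3. These are correlations across genes, which are not independent replicates and which share the same libraries. Nothing in the labels says that the replicates came from separate days or cages, so the spread given is that between these 3 libraries.

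**Figure D3:**
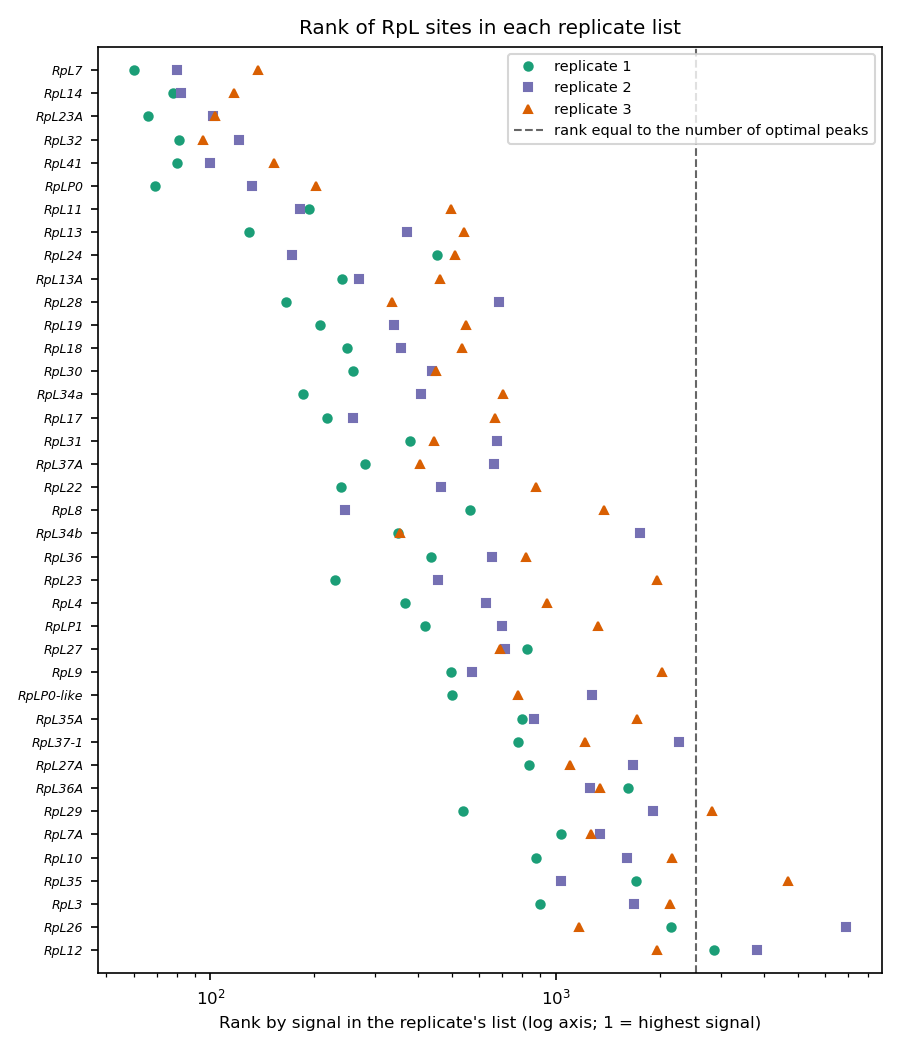
Rank of 39 of the 40 RpL sites by signal in the list of each replicate (log axis, 1 is the highest signal), ordered by pooled signal, with 1 symbol per replicate. The 6 genes at the top hold ranks from 60 to 202, and the dashed line marks rank 2537; RpL26, RpL12, RpL35 and RpL29 have symbols beyond it.

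Strings of known promoter elements were counted within 100 bp of the summit, on both strands, at the 40 RpL sites and at the 1425 distinct highest sites of all protein-coding genes, which include the RpL sites. None of the strings searched contains another. RpL summits lay nearer to a TSS (95% within 100 bp, beside 32.4% of all genes with a site). These windows thus compare sequence at unlike distances from a TSS, and this was not adjusted for. The DRE string TATCGATA was found at 10 RpL sites (25.0%), beside 6.81% of all sites. The E box CACGTG was found at 9 RpL sites (22.5%), beside 3.37%. Motif 1 (GGTCACACT) was found at 6 (15%), beside 3.16%, and motif 7 (CANCNCTA) at 11 (27.5%), beside 15.2%. At least 1 of these 4 strings was present at 25 of the 40 RpL sites (62.5%), beside 24.6% of all sites. Among the genes of high signal described above, the DRE was at RpL41 and RpL28, CACGTG at RpL7, RpL11 and RpL24, motif 1 at RpL7 and RpLP0, and motif 7 at RpL14 and RpL11. RpL23A, RpL32, RpL13 and RpL13A held none of the 4. RpL37-1 was the only RpL site with both a DRE and CACGTG.

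The shares of the other strings at RpL sites were below those over all sites. TAATTA, the core string of many homeodomains, was found at 2 of the 40 RpL sites (5%), among them RpL23, beside 14.0% of all sites. GAGAG was found at 3 (7.50%), beside 24.0%, and TATAAA at 6 (15%), beside 28.1%. CAGCTGTT was found at none of the 40, which allows a share of up to 7.50%, beside 6.18% of all sites, so no difference was detectable in this window. In the wider promoter, from 250 bp before to 50 bp after the canonical TSS, it was again at none of the 40 RpL genes with a site, with the same limit of 7.50%, beside 12.1% of all genes with a site. TAATTA did not keep its smaller share in that window, where 9 of the 40 RpL genes with a site held it (22.5%), beside 20.8% of all genes with a site. In the same window GAGAG was found at 10 of the 40 (25%), beside 33.0%, and TATAAA at 13 (32.5%), beside 38.8%. The 200 bp around the summits also differed in base composition, with a median GC content of 43.3% at RpL sites and 37.8% at all sites, and its part in these shares was not tested.

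**Figure D4:**
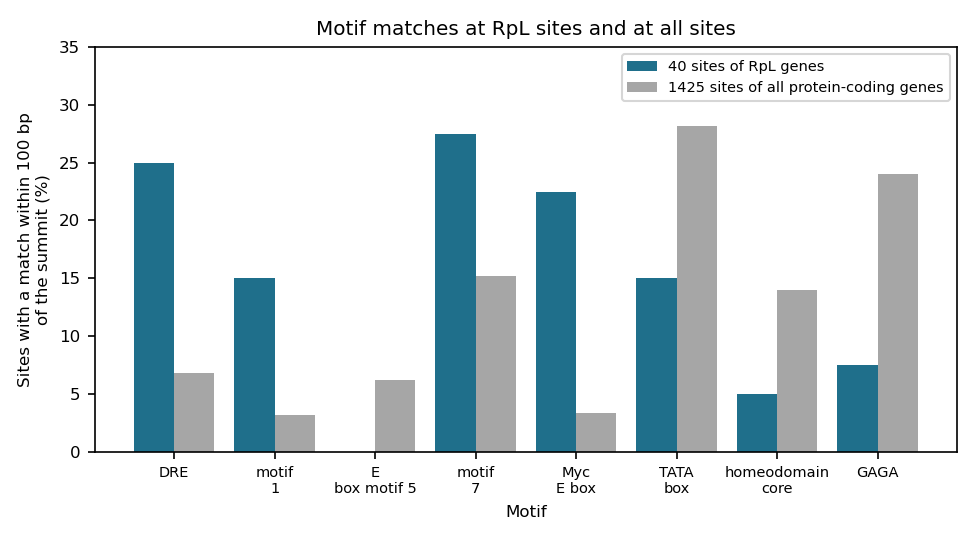
Percent of sites with a match to each string within 100 bp of the summit for the 40 RpL sites and the 1425 sites of all protein-coding genes. The DRE, motif 1, motif 7 and the Myc E box were found at a larger share of RpL sites than of all sites, and the TATA box, homeodomain core and GAGA strings at a smaller share.

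The TCT initiator string was found at RpL genes both with and without a site. CTTT with its C within 5 bp of any annotated TSS was found at 33 of the 54 RpL genes (61.1%), beside 8.07% of all protein-coding genes. It was present at 26 of the 40 RpL genes with a site and at 7 of the 14 without, beside 13.2% and 7.18% of all genes with and without a site. The string was not particular to RpL genes, since 25 of the 39 RpS genes, counted with sta, held it (64.1%). Genes with more annotated TSSs have more chances of a match, and at the canonical TSS alone the counts were 25 of 54 RpL genes (46.3%) and 5.72% of all genes. RpL genes with a site and the string at any TSS had a median signal of 279.1 (range 126.3 to 534.3), and those without the string 217.5 (range 116.8 to 476.5), ranges that overlapped. In the promoter window, the DRE string was found at 10 of 40 RpL genes with a site and 5 of 14 without, beside 12.2% and 8.37% of all genes with and without a site. Motif 7 was found at 14 of 40 and 5 of 14, beside 24.9% and 13.7%. CACGTG was found at 8 of 40 and 3 of 14, beside 5.22% and 4.09%. Motif 1 was found at 6 of 40 and at none of the 14, which allows a share of up to 21.4%, beside 8.15% and 5.47%. The TATA string had the widest gap, at 13 of 40 RpL genes with a site (32.5%) and 10 of 14 without (71.4%), beside 38.8% and 46.4%. Over all promoters TAATTA was found at 12 of 54 RpL genes (22.2%), beside 20.04% of all genes, and GAGAG at 12 of 54 (22.2%), beside 30.2%.

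Position in the genome and hosted RNAs varied among the RpL genes. All 6 RpL genes on the X chromosome had a site, as did 8 of 10 on 3L, 8 of 11 on 3R, 9 of 13 on 2L and 9 of 14 on 2R. The shares of all protein-coding genes with a site were 13.0% on X, 15.2% on 3L, 16.0% on 3R, 14.4% on 2L and 14.3% on 2R. Small nucleolar RNAs, which guide modification of rRNA, are encoded within introns of many ribosomal protein genes. Here 16 RpL genes hosted 33 of them. A site was found at 13 of these 16 genes and at 27 of the 38 RpL genes hosting none. The same shares were not counted over all protein-coding genes, so no difference by hosting is read from these counts.

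Other genes of the translation machinery were set beside the RpL genes. The RpS genes with sta, which encode proteins of the small subunit, had a site at 28 of 39 (71.8%), with a median signal of 175.4 and a median distance to the TSS of 26.5 bp. The signal was thus lower at the median than the 254.1 of the RpL genes, although the ranges overlapped and the RpS gene RpS27 reached 820.5. The mRpL genes, whose products serve the mitochondrial ribosome, had a site at 8 of 47 (17.0%), near the 14.7% of all genes, with a median distance of 137.5 bp. Of 7 matched elongation factor genes, 4 had a site, eEF1gamma (407.1), eEF5 (199.8), eEF1alpha1 (162.2) and eEF2 (152.1). The nucleolar and 60S assembly list had a site at 7 of 16 genes, led by eIF6 (662.6), but only 1 of those summits lay within 100 bp of the TSS. Of 9 RNA polymerase I genes, Polr1D alone had a site (141.5). Among 11 regulators of growth and of ribosomal protein genes, 4 had a site, Dref (314.3, shared with RpL13), Thor (215.2), REPTOR (198.3) and Mnt (154.6). Myc had a pooled candidate of 59.98 and M1BP one of 100.3, both below the optimal list.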

How the data were processed

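ChIP-seq of 3 biological replicates of eyg-GFP embryos was used as region lists on dm6. Per the listings deposited with the libraries, the authors called peaks for every replicate with a control, then for the pool of replicates, and kept as optimal those passing an irreproducible discovery rate step, which compares ranks between replicates. The aligner and the peak caller were not given in the sources used here. Per region, the deposited lists hold a signal of unstated scale and the distance of the summit from the region's start. The authors also deposited a −log10 q-value per region. The lists give no read counts, so depth is unknown. The control library and the dm3 lists were not used here.

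Summits were assigned to every gene with a TSS within 1 kb (Ensembl release 115, BDGP release 6.54; Python 3.11.15, numpy 2.4.6, pysam 0.24.0), and the region of highest signal was kept per gene. The assignment was tested on simulated data. A replicate call was matched to a site when it overlapped the optimal peak, and the call of highest signal was taken. Sequence came from RefSeq. The 3 replicates form 1 group, so counts and medians stand beside those of all protein-coding genes, with no test. Wilson intervals cover counting error only. Members, lists and motifs were chosen with earlier results of these data known. Values are given for the 12 highest members, the 2 highest and the lowest of each role, the 5 lowest with a site, all members without a site and the duplicate pairs. Of the genes this rule selects, 1 is not reported here by name and is not drawn in the figures, though the counts and medians include it. Of the hand-written lists, eEF3 and Tor matched no annotated symbol and were not analysed here.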

Additional observations from a re-analysis of the deposited data

How the results depend on the processing

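Of 41 alternatives, 39 left the values within the limits set for them. They covered the distance to a TSS, the peak midpoint, the higher-ranked part of the optimal list, the canonical TSS and the gene of the nearest TSS. For counts the limit was a ratio of 1.5, which no rise from 40 of 54 genes could pass. Taking pooled candidates thus stayed within it at 51 genes, while the share of all protein-coding genes went from 14.7% to 56.4%. Restricting sites to peaks with TSSs of 1 gene gave 12 of 54 RpL genes (22.2%, beside 6.13% of all genes); 28 of the 40 RpL sites have another TSS within 1 kb. Ranking only among the 2537 highest calls of each replicate, with calls outside them set to 0, gave a median percentile of 78.3, beside 54.5 for all genes. Each replicate was also left out in turn, requiring the summit to lie among the highest calls of both others. This gave 34 to 37 RpL genes with a site (63.0 to 68.5%), beside 10.1 to 10.9% of all protein-coding genes. The optimal list and its signals still came from all 3 replicates, so these counts could only fall. The RpL sites kept had a median signal of 265.9 to 267.2 and a median distance of 32.5 to 34 bp. Without this requirement, the median percentile of the 40 sites was averaged over the replicates kept. It ran from 97.6 to 98.4, beside 95.8 to 96.1 for all genes with a site. An alternative added after the data were seen took only replicate calls that hold the optimal summit. It left RpL3 and RpL32 without a replicate 2 call, at 38 of 40, and gave 97.9. No paired analysis was possible because the series has 1 group. Without read counts, the depth behind a missing or weak call is unknown.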
